A study of Mus musculus with 12 samples.

Results

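The respiratory chain was examined as transcripts in whole mouse lung. Its members were the protein-coding rows of the expression table whose symbols mark a subunit of complexes I to V, that is mt-Nd, mt-Co, mt-Cytb and mt-Atp on the mitochondrial genome, and Ndufa, Ndufb, Ndufc, Ndufs, Ndufv, Sdha to Sdhd, Uqcr, Cox4 to Cox8 and Atp5 on the nuclear genome. This gave 106 genes of the 16698 protein-coding genes listed, 13 of them mitochondrially encoded and 93 nuclear-encoded. The nuclear members comprised 37 genes of complex I, 4 of complex II, 8 of complex III, 19 of complex IV (18 genes and the pseudogene symbol Cox5b-ps, which the table lists as protein-coding), 17 of complex V, and 8 Ndufaf assembly factors, which the symbol pattern also takes. The mitochondrially encoded members comprised 7 genes of complex I, 1 of complex III, 3 of complex IV and 2 of complex V. All 106 passed the filter of a mean of 1 CPM (reads scaled to a common total per library) and were tested.

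The 12 libraries came from the lungs of C57BL6/J mice, 1 mouse per library, with 4 mice in each of 3 groups. The control group was taken at 0 weeks, and the treated groups drank L-NAME (0.5 g/L) and ate a high-fat diet (60% lipid) for 2 or 5 weeks. L-NAME blocks nitric oxide synthases, and with a high-fat diet it is used to model heart failure with preserved ejection fraction. The only untreated mice are those at 0 weeks, so time on study and treatment cannot be told apart, nor can the drug and the diet.

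The respiratory chain passes electrons from NADH and succinate to oxygen across the inner mitochondrial membrane, and ATP synthase (complex V) uses the proton gradient that complexes I, III and IV build. Complex II is built from nuclear genes only, whereas the other complexes combine subunits made inside the mitochondrion with subunits imported from the cytosol. The mitochondrial genes are transcribed as long polycistronic RNAs from both strands and cut into mRNAs at the tRNAs between them, while each nuclear subunit has its own promoter. Nitric oxide binds cytochrome c oxidase (complex IV) in competition with oxygen.

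Some neighbouring mitochondrial genes share bases, which bears on how their reads were divided. The end of each upstream gene is printed here from GENCODE M21 (GRCm38), whose start and end for all 13 mitochondrial members equal those of the deposited table. Capitals mark the bases that lie in both genes.
mt-Atp8, chrM:7920-7969, plus strand, 43 bases shared with mt-Atp6: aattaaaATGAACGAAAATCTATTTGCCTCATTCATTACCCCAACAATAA
mt-Nd4l, chrM:10144-10173, plus strand, 7 bases shared with mt-Nd4: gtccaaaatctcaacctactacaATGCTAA
mt-Nd5, chrM:13536-13565, plus strand, 14 bases shared with mt-Nd6 on the minus strand: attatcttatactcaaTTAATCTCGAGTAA
mt-Atp8 with mt-Atp6, and mt-Nd4l with mt-Nd4, are each carried on 1 bicistronic mRNA. Averaged over the 12 libraries, mt-Atp8 nevertheless stood at 105 CPM per kb against 2527 CPM per kb for mt-Atp6, and mt-Nd4l at 262 against 2702 for mt-Nd4. How reads over shared bases, and reads on the opposite strand of mt-Nd6, were counted is not given in the sources used here, so the levels of these 6 genes are uncertain.

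The nuclear members have separate promoters, and 76 of the 93 matched a RefSeq entry (GRCm38.p6) that holds the 250 bases before the gene's start. The motif of nuclear respiratory factor 1, a regulator of many respiratory chain genes, was searched as GCGCANGCG on both strands. It lay in 19.8% of the 81 windows of these members and in 5.16% of all 32851 windows. The ETS motif CCGGAAG, read by GABPA, lay in 17.3% and 6.91%. Also searched were YY1 (AAGATGGC, 1.23% against 1.56%), oestrogen-related receptor (AAGGTCA, 6.17% against 4.08%) and the myogenic E-box (CAGCTG), which lay in 7.41% of the members' windows and in 13% of all windows. These shares describe letters and not binding. The windows below are shown because each holds a GCGCANGCG match, printed in capitals, and because those of Sdhd, Cox6a1 and Atp5h also hold an ETS match elsewhere in the 250 bases. Ndufb4, with 3 matches, stands for complex I.
Ndufb4 (complex I), chr16:37654424-37654462, minus strand: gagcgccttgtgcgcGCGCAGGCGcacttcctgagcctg
Sdhd (complex II), chr9:50603905-50603943, minus strand: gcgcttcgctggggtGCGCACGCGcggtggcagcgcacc
Cox6a1 (complex IV), chr5:115349052-115349090, minus strand: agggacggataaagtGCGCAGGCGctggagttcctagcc
Atp5h (complex V), chr11:115420037-115420075, minus strand: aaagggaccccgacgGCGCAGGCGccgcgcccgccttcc
The 15 members with a GCGCANGCG match had a median difference of 0.12 on the log2 scale at 2 weeks against 0 weeks and of 0.09 at 5 weeks against 0 weeks. For the 61 matched members without one, the medians were 0.13 and 0.09. At 5 weeks against 2 weeks the medians were -0.01 with and -0.05 without a match. The 14 members with an ETS match had medians of 0.12 at 2 weeks and 0.13 at 5 weeks against 0 weeks and of -0.01 between 5 and 2 weeks, and the 62 without one had 0.13, 0.08 and -0.05. None of these differences between members with and without a motif was tested.

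Before the results, the libraries themselves need description. The depth read from the steps of low CPM values lay between 26000000 and 34100000 reads per library, and the log2 values of any pair of libraries correlated at a Pearson r of 0.9789 to 0.9968 across genes. Lung markers were present in every library, with 5 alveolar type 2 markers summing to between 16860 and 25455 CPM. Several libraries stood apart by markers of other tissues. The 10 skeletal muscle markers summed to 11244 CPM in 2-week replicate 3 and 530 CPM in control replicate 2, against 18.2 to 63.1 CPM in the other 10 libraries, where between 0 and 3 of the 10 were listed at 0. The 8 adipocyte markers summed to 1629 CPM in control replicate 2 against 52.4 to 158 CPM elsewhere. The 6 red cell markers summed to 16210 CPM in 5-week replicate 3 against 1079 to 4489 CPM elsewhere.

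Mitochondrially encoded transcripts dominated the chain. The 13 genes summed to 31242 ± 2615 CPM (SD, n = 4) in the control group, which is 3.12% of all CPM, whereas the 93 nuclear members summed to 5938 ± 774 CPM. Per length, mt-Co1, the catalytic subunit of complex IV, was highest at 6842 CPM per kb averaged over the 12 libraries, followed by mt-Cytb of complex III at 3309 and mt-Nd4 of complex I at 2702. The highest nuclear members per length were Cox4i1 and Cox6a1 of complex IV at 331 and 327 CPM per kb and Atp5b, the catalytic beta subunit of ATP synthase, at 288 CPM per kb. The lowest was Atp5g2, a gene for subunit c of ATP synthase, at 2.39 CPM per kb. The median nuclear member lay at 56.9 CPM per kb.

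The summed level of the mitochondrially encoded genes was close to even among the 5-week lungs and spread widely at 2 weeks. It was 33123, 31452, 32910 and 27481 CPM in control replicates 1 to 4, then 34492, 34733, 40914 and 25169 CPM at 2 weeks, and 26756, 26728, 26688 and 27787 CPM at 5 weeks. Of the controls, 3 of 4 lay above every 5-week library, and control replicate 4 lay within their range. At 2 weeks replicate 3 was the highest of all 12 libraries and replicate 4 the lowest. The group means were 33827 ± 6492 CPM at 2 weeks and 26990 ± 532 CPM at 5 weeks (SD, n = 4 each).

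The nuclear members summed to 6102, 6572, 6263 and 4814 CPM in the controls, 6296, 6371, 7105 and 5759 CPM at 2 weeks, and 5873, 5681, 7987 and 5506 CPM at 5 weeks. Control replicate 4 was the lowest and 5-week replicate 3 the highest. The 3 groups overlapped. The ratio of the mitochondrial to the nuclear sum was 5.43, 4.79, 5.25 and 5.71 in the controls, 5.48, 5.45, 5.76 and 4.37 at 2 weeks, and 4.56, 4.70, 3.34 and 5.05 at 5 weeks. At 5 weeks 3 of the 4 ratios lay below every control ratio, and that of replicate 4 lay within the control range.

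**Figure D1:**
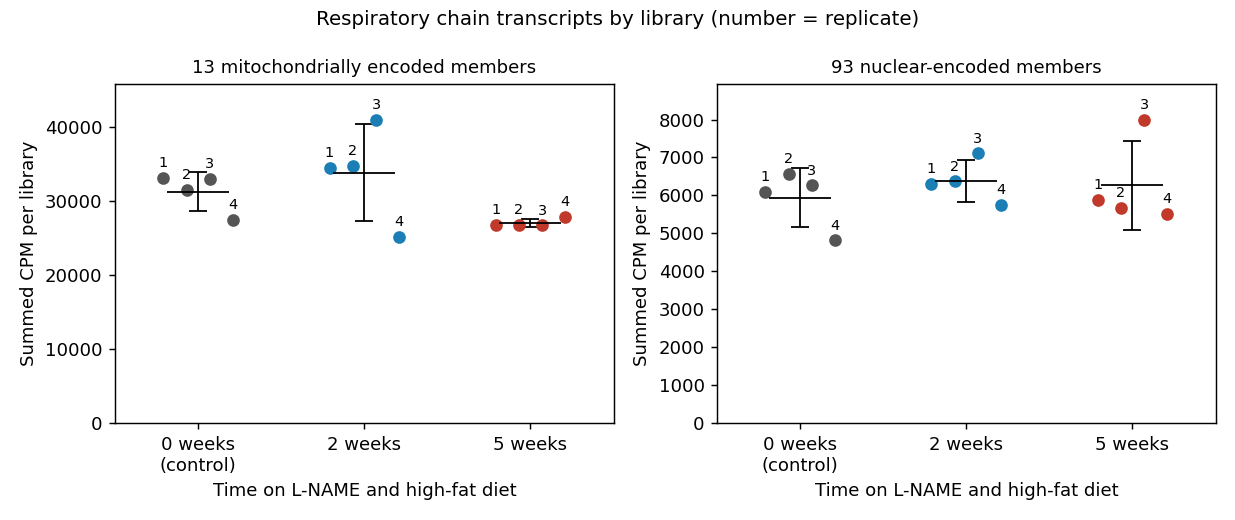
Summed CPM of the 13 mitochondrially encoded (left) and the 93 nuclear-encoded (right) genes in each library, by weeks on L-NAME and high-fat diet; points are libraries with their replicate number, and the horizontal line and bars are the group mean and SD (n = 4). The 5-week mitochondrial sums lie between 26688 and 27787 CPM, and 5-week replicate 3 has the highest nuclear sum at 7987 CPM.

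No member passed the threshold of an adjusted p of 0.05 in any of the 3 comparisons (limma with Benjamini-Hochberg adjustment over 15562 genes). The same held for the whole table, where 0% of genes passed in each comparison. At an unadjusted p under 0.05, 2 members passed at 2 weeks against 0 weeks (9.24% of all genes), 0 at 5 weeks against 0 weeks (8.63% of all genes) and 9 at 5 weeks against 2 weeks (10.9% of all genes). What follows therefore gives sizes and directions, none of which passed the adjusted test.

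The mitochondrially encoded genes had lower means at 5 weeks in each of complexes I, III, IV and V. All 13 had a lower mean of log2(CPM + 1) at 5 weeks than at 0 weeks, with a median difference of -0.22 and a range from -0.36 (mt-Nd5) to -0.07 (mt-Nd6). The nuclear members had a median difference of 0.09 in the same comparison, with 79 of 93 higher, and all genes tested had a median of 0.02, with 55% higher. At 2 weeks against 0 weeks both classes were higher in the mean, 12 of 13 mitochondrial genes with a median of 0.11 and 89 of 93 nuclear genes with a median of 0.13, beside 55.1% of all genes with a median of 0.02. Both of these comparisons use the same control libraries. At 5 weeks against 2 weeks all 13 mitochondrial genes were lower, with a median of -0.33. The nuclear median was -0.05, with 31 of 93 members higher, beside 50.2% of all genes. Members deviated together between libraries, as described below, so these counts are not of independent genes.

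The 2 ribosomal RNAs of the same mitochondrial genome, chosen here after their values were seen, had means at 5 weeks that were not lower than in the controls. Whether they differed in this from the 13 members was not tested. Both stood far below mt-Cytb, which had a control mean of 3939 CPM. Whether their levels follow mitochondrial RNA or the preparation of the libraries was not tested. mt-Rnr1 had 176, 217, 270 and 226 CPM in the controls and 199, 185, 300 and 216 CPM at 5 weeks, with means of 222 ± 38.5 and 225 ± 51.4 CPM. mt-Rnr2 had 384, 364, 480 and 385 CPM in the controls and 383, 343, 556 and 372 CPM at 5 weeks, with means of 403 ± 52.1 and 413 ± 96.3 CPM (SD, n = 4 each). Both were highest in 5-week replicate 3, and the groups overlapped. At 2 weeks their means were 208 ± 30.03 and 405 ± 74.0 CPM.

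**Figure D2:**
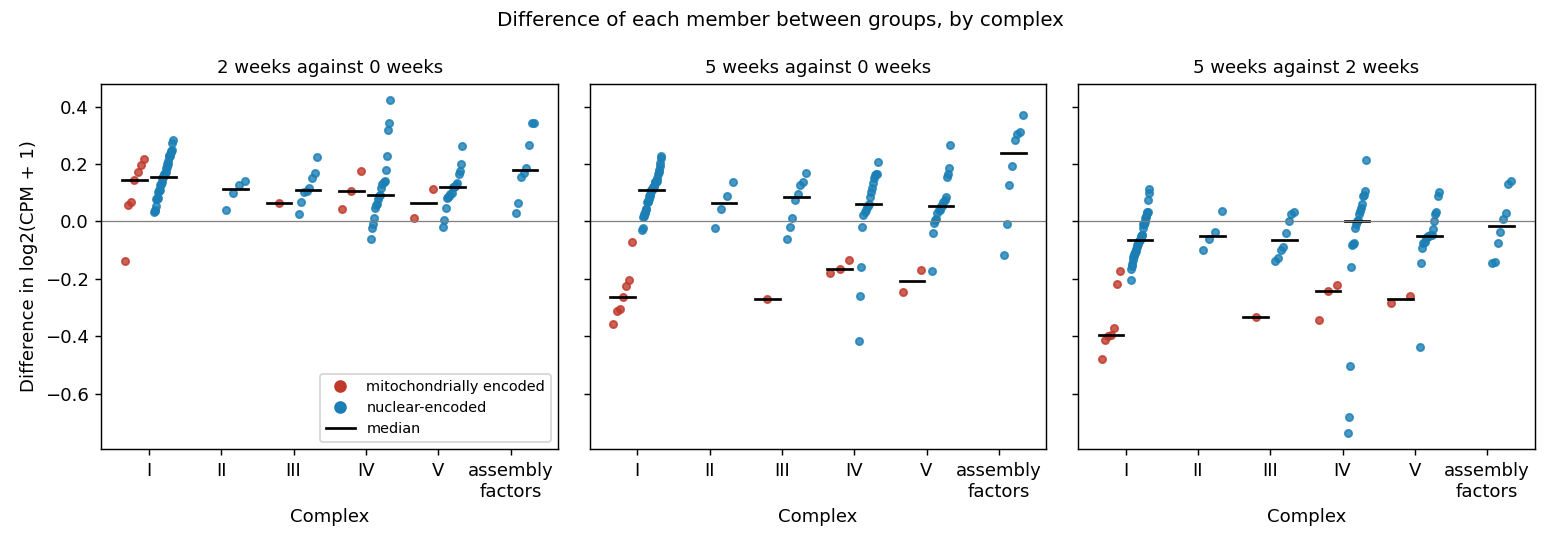
Difference in mean log2(CPM + 1) of each member between groups, by complex; red points are mitochondrially encoded, blue points nuclear-encoded, and black lines are medians. The 13 red points lie below 0 in both comparisons of the 5-week group, and the nuclear points of complex I lie above 0 for 37 of 37 genes at 2 weeks and 35 of 37 genes at 5 weeks against 0 weeks.

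These medians leaned on single libraries to different degrees. The mitochondrial median at 5 weeks against 0 weeks lay between -0.29 and -0.17 when any 1 library was left out. The nuclear median of that comparison did not keep its sign: it was -0.05 with library weights, and leaving out control replicate 4 gave -0.02 and leaving out 5-week replicate 3 gave -0.04. At 2 weeks against 0 weeks the nuclear median dropped to 0.02 when control replicate 4 was left out and to 0.07 when 2-week replicate 3 was. The mitochondrial median of that comparison was 0.06 when control replicate 4 or 2-week replicate 1 was left out, 0.02 for 2-week replicate 3 and 0.22 for 2-week replicate 4. With control replicate 2, 2-week replicate 3 and 5-week replicate 3, which stood apart by markers, left out together, the mitochondrial medians were 0.02 at 2 weeks and -0.22 at 5 weeks against 0 weeks, and the nuclear medians were 0.13 and 0.01.

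Complex I, the entry point for electrons from NADH, takes 7 subunits from the mitochondrial genome, all in its membrane arm. mt-Nd2, a proton-pumping subunit (chrM:3914-4951), had 2386, 2087, 2274 and 1902 CPM in the controls, 2605, 2468, 2988 and 1801 CPM at 2 weeks, and 1900, 1899, 1760 and 1823 CPM at 5 weeks. Every control library lay above every 5-week library, although control replicate 4 did so by only a few CPM. mt-Nd4, another proton-pumping subunit (chrM:10167-11544), had 4108, 3868, 4038 and 3515 CPM in the controls, 4151, 4351, 5062 and 2974 CPM at 2 weeks, and 3328, 3282, 2674 and 3331 CPM at 5 weeks. Here too the control and the 5-week groups did not overlap. The differences at 5 weeks against 0 weeks were -0.22 ± 0.13 for mt-Nd2 and -0.30 ± 0.15 for mt-Nd4 on the log2 scale (standard error), with an exact two-sided permutation p of 0.0286 for each, the smallest that 4 against 4 libraries can give, and limma adjusted p of 0.658 and 0.593. These were the 2 of 13 mitochondrial genes that lay wholly below the controls, whereas 1.36% of all genes did so.

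The other mitochondrial complex I genes overlapped between controls and 5 weeks. mt-Nd5, the largest of them, had 2141, 2233, 1757 and 2006 CPM in the controls, 2091, 2149, 2811 and 1562 CPM at 2 weeks, and 1646, 1721, 1224 and 1812 CPM at 5 weeks. Only control replicate 3 fell among the 5-week values. Its difference of -0.36 ± 0.17 (adjusted p = 0.579, limma) was the largest of the 13, and it was -0.23 without 5-week replicate 3. mt-Nd3 differed by -0.31 ± 0.17, mt-Nd4l by -0.26 ± 0.17, mt-Nd1 by -0.20 ± 0.15 and mt-Nd6, the only one of the 13 on the minus strand, by -0.07 ± 0.14. mt-Nd3 was also the only mitochondrial gene with a lower mean at 2 weeks than at 0 weeks, by -0.14 ± 0.17.

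In complex III, mt-Cytb, which carries the haem groups that hand on electrons within the membrane (chrM:14145-15288), had 4189, 3909, 4238 and 3420 CPM in the controls, 4295, 4321, 4937 and 3088 CPM at 2 weeks, and 3280, 3273, 3053 and 3428 CPM at 5 weeks. Its difference at 5 weeks against 0 weeks was -0.27 ± 0.14 (adjusted p = 0.603, limma). Control replicate 4 lay just below 5-week replicate 4, and the other 3 controls lay above all 5-week libraries.

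In complex IV, mt-Co1 (chrM:5328-6872) had 10975, 10602, 11084 and 9627 CPM in the controls, 11644, 12018, 13710 and 8708 CPM at 2 weeks, and 9319, 9587, 9586 and 9985 CPM at 5 weeks. Its difference of -0.13 ± 0.14 at 5 weeks against 0 weeks was the smallest after that of mt-Nd6. mt-Co2, which holds the copper site that accepts electrons from cytochrome c, differed by -0.16 ± 0.15 and mt-Co3 by -0.18 ± 0.14. In complex V, mt-Atp6, the proton channel subunit, differed by -0.25 ± 0.14 and mt-Atp8 by -0.17 ± 0.12.

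Between 2 and 5 weeks, 8 of the 13 mitochondrial genes had an unadjusted p under 0.05, all lower at 5 weeks, whereas 4.72% of all genes were lower at that level. They were mt-Nd1 (-0.40 ± 0.15), mt-Nd2 (-0.39 ± 0.13), mt-Nd4 (-0.37 ± 0.15), mt-Nd4l (-0.48 ± 0.17), mt-Nd5 (-0.41 ± 0.17), mt-Cytb (-0.33 ± 0.14), mt-Co2 (-0.34 ± 0.15) and mt-Atp8 (-0.28 ± 0.12), with limma adjusted p of 0.330 to 0.431. Mitochondrial genes share polycistronic transcripts and deviated together between libraries, so these 8 are not separate results. For none of the 13 were the 2 groups separate, because 2-week replicate 4 was the lowest 2-week library for all 13. Of all genes, 2.56% lay wholly lower at 5 weeks. Without 2-week replicate 4, the 4 of 106 members mt-Nd1, mt-Nd2, mt-Nd4 and mt-Cytb passed the adjusted threshold. In that setting 386 genes passed in the whole table, and the median of the 13 was -0.47. No member passed when any other single library was left out. With library weights 881 of 15562 genes passed, among them 8 of the 106 members. These were mt-Nd1, mt-Nd2, mt-Nd4l, mt-Cytb, mt-Co2, mt-Co3, Atp5g1 and Cox6a2. In both settings genes outside the respiratory chain passed as well, so the calls are not particular to the members.

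**Figure D3:**
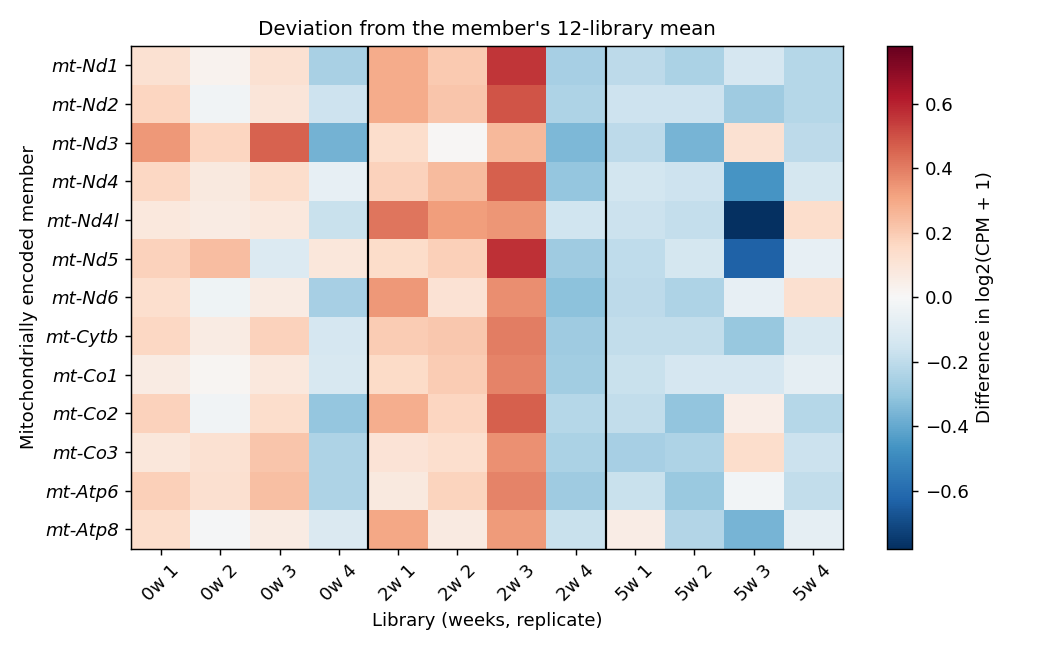
Deviation of each mitochondrially encoded gene in each library from its mean over the 12 libraries, in log2(CPM + 1), with black lines between the groups (4 libraries each). The column of 2-week replicate 3 is high for nearly all genes, that of 2-week replicate 4 is low for all 13, and 5-week replicate 3 is low for mt-Nd4l, mt-Nd5 and mt-Nd4 but not for mt-Nd3, mt-Co2 or mt-Co3.

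Heart muscle is rich in mitochondria, and markers of it varied between these lungs. The 12 cardiomyocyte markers, none of which was at 0 in any library, summed to 1054, 1353, 1170 and 748 CPM in the controls, 1405, 2225, 1151 and 600 CPM at 2 weeks, and 755, 969, 1030 and 637 CPM at 5 weeks. Control replicate 4 and 2-week replicate 4, the lowest of their groups for the mitochondrial sum, were also the lowest of their groups here. At 5 weeks the order was otherwise. There replicate 4 was the lowest for these markers, at 637 CPM, but had the highest mitochondrial sum of its group, at 27787 CPM. The highest mitochondrial sum of all 12 libraries was in 2-week replicate 3, which was not the highest here but held 11244 CPM of skeletal muscle markers. Of the 12 markers, 3 had a higher mean at 5 weeks than at 0 weeks, with a median difference of -0.30. At 2 weeks 11 had a higher mean than at 0 weeks, with a median of 0.16. All 12 were lower at 5 weeks against 2 weeks, with a median of -0.39. In whole tissue, fewer cells of a type and less RNA per cell cannot be told apart.

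Markers of blood, immune, smooth muscle and ciliated cells differed in the same comparisons, and none passed the adjusted threshold. At 5 weeks against 0 weeks the 6 red cell markers all had higher means, with a median difference of 1.45. So did the 4 neutrophil markers (1.27), the 4 B cell markers and the 4 natural killer cell markers (0.83 each) and the 6 alveolar macrophage markers (0.30). At 5 weeks against 2 weeks the 4 neutrophil and the 6 alveolar macrophage markers were all higher, with medians of 1.71 and 0.93, as were the 6 red cell (1.48), 4 B cell (0.70) and 4 natural killer cell markers (0.75). The 6 alveolar macrophage markers were all lower at 2 weeks against 0 weeks, with a median of -0.66. The 5 smooth muscle markers were all higher at 2 weeks against 0 weeks, with a median of 0.38, and all lower at 5 weeks against 2 weeks, with a median of -0.53 (against 0 weeks the 5-week median was -0.15, with all 5 lower). None of these 29 markers was at 0 in any library. The 6 ciliated cell markers, also never at 0, were all higher at 2 weeks against 0 weeks, with a median of 0.27. All 6 were lower at 5 weeks against 2 weeks, with a median of -0.30. At 5 weeks against 0 weeks 3 of the 6 were higher, with a median of 0.003. Other lists shifted too, without passing the adjusted threshold. Against 0 weeks the 4 alveolar type 1 markers were all higher at 2 and 5 weeks (medians 0.14 and 0.17). At 5 weeks all 5 alveolar type 2 markers were higher (0.08) and 6 of 7 pericyte markers lower (-0.16). Of 7 adipocyte markers tested, 7 were lower at 2 weeks (-1.11) and 6 at 5 weeks (-1.01), with control replicate 2 standing apart. The endothelial markers went both ways.

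By group, the red cell sum ranged from 1235 to 2604 CPM in the controls, from 1079 to 2491 CPM at 2 weeks and from 1509 to 16210 CPM at 5 weeks. The neutrophil sum ranged from 34.7 to 124 CPM, from 26.9 to 93.4 CPM and from 71.2 to 267 CPM in the same order, and the alveolar macrophage sum from 252 to 658 CPM, from 217 to 665 CPM and from 528 to 708 CPM. The B cell sum ranged from 77.8 to 131 CPM, from 84.4 to 177 CPM and from 141 to 315 CPM, and the natural killer cell sum from 20.02 to 34.4 CPM, from 18.5 to 46.8 CPM and from 40.8 to 71.7 CPM. The smooth muscle sum ranged from 929 to 1062 CPM, from 1069 to 1626 CPM and from 831 to 1037 CPM. The ciliated cell sum ranged from 194 to 231 CPM, from 185 to 285 CPM and from 190 to 240 CPM. The B cell and natural killer cell sums of the 5-week libraries lay above those of all controls, and the smooth muscle sums at 2 weeks lay above those of all other libraries. The part of these markers, and of the cardiomyocyte markers, in the differences of the respiratory chain genes was not tested.

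Among the nuclear members of complex I, the 7 core subunits, which carry the flavin and iron-sulphur clusters, had a median difference of 0.20 at 2 weeks and 0.08 at 5 weeks against 0 weeks, and the 30 supernumerary subunits, which surround the core, had medians of 0.15 and 0.12. All 37 were higher in the mean at 2 weeks and 35 at 5 weeks. Ndufb7, a supernumerary subunit (chromosome 8, 84293300 to 84298255, as the deposited table gives it), had 53.7, 54.7, 60.1 and 39.6 CPM in the controls, 62.0, 62.4, 65.0 and 61.8 CPM at 2 weeks, and 57.7, 51.7, 77.3 and 49.2 CPM at 5 weeks. The 2-week libraries lay close together and above all 4 controls, whereas the 5-week libraries overlapped both. The difference at 2 weeks was 0.28 ± 0.14 (exact permutation p = 0.0286, limma adjusted p = 0.557). It was the only one of the 106 members to lie wholly above the controls at 2 weeks, as 3.37% of all genes did. At 2 weeks the core subunit Ndufs7 differed by 0.25 ± 0.13. At 5 weeks Ndufb1 differed by 0.23 ± 0.18, Ndufa6 by 0.17 ± 0.14 and Ndufb7 by 0.17 ± 0.14. Without 5-week replicate 3 those 3 differences were 0.07, 0.02 and 0.04, and without control replicate 4 the 2-week difference of Ndufb7 was 0.16.

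The Ndufaf assembly factors help build complex I and leave it before it is complete. They held the only 2 of 106 members with an unadjusted p under 0.05 against the controls. Both passed at 2 weeks, where 9.24% of all genes did, a larger share than among the members. Ndufaf8 (chromosome 11, 119989754 to 119991531) had 12.8, 12.7, 14.6 and 10.4 CPM in the controls, 16.9, 16.6, 17.1 and 14.1 CPM at 2 weeks, and 13.8, 13.2, 21.5 and 15.5 CPM at 5 weeks. At 2 weeks it was higher by 0.34 ± 0.14 (limma adjusted p = 0.496), with replicate 4 below the highest control. Ndufaf7, a methyltransferase (chromosome 17, 79244565 to 79255481), had 18.3, 19.2, 18.9 and 14.2 CPM in the controls and 22.0, 20.3, 24.3 and 19.0 CPM at 2 weeks, a difference of 0.27 ± 0.11 (limma adjusted p = 0.506), with replicate 4 just below the highest control. At 5 weeks it had 19.7, 18.3, 22.0 and 17.1 CPM and overlapped the controls.

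Ndufaf2, an assembly chaperone (chromosome 13, 108139249 to 108295157), had 5.64, 6.13, 5.55 and 5.52 CPM in the controls, 5.82, 5.73, 6.40 and 8.13 CPM at 2 weeks, and 6.80, 6.21, 10.1 and 6.17 CPM at 5 weeks. The 5-week libraries lay above all 4 controls, 2 of them by a small margin. The difference was 0.28 ± 0.15 (exact permutation p = 0.0286, limma adjusted p = 0.617), and 3.65% of all genes lay wholly above the controls at 5 weeks. Without 5-week replicate 3 the difference was 0.14. Ndufaf6, needed for an early step of assembly, differed by 0.31 ± 0.16 at 5 weeks, and Ndufaf5, a hydroxylase of Ndufs7, by 0.34 ± 0.22 at 2 weeks. Both were expressed at a few CPM.

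Complexes II and III showed small differences. The 4 succinate dehydrogenase genes differed by 0.04 to 0.14 at 2 weeks and by -0.02 to 0.14 at 5 weeks against 0 weeks. Sdha, the flavoprotein and the most abundant of them by CPM, had 208, 256, 194 and 182 CPM in the controls, 209, 214, 252 and 187 CPM at 2 weeks, and 203, 207, 201 and 208 CPM at 5 weeks. Its 5-week values were nearly equal, and the 3 groups overlapped. Sdhc and Sdhd, which anchor the complex in the membrane, and the iron-sulphur subunit Sdhb differed by 0.14 ± 0.11, 0.10 ± 0.12 and 0.13 ± 0.16 at 2 weeks, and by 0.04 ± 0.11, 0.14 ± 0.12 and 0.09 ± 0.16 at 5 weeks. In complex III the core protein Uqcrc1 differed by 0.15 ± 0.10 at 2 weeks, and the small subunits Uqcrq and Uqcrh by 0.22 ± 0.18 at 2 weeks and 0.17 ± 0.20 at 5 weeks. Uqcrc2, the other core protein, differed by 0.11 ± 0.10 and 0.07 ± 0.10, and Uqcrq by 0.13 ± 0.18 at 5 weeks. All of these are smaller than 2 standard errors, and the 2-week difference of Uqcrq was 0.05 without control replicate 4.

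Complex IV has nuclear subunits with tissue isoforms, and these were the most variable members. Cox6a2, Cox7a1 and Cox8b are the heart and skeletal muscle forms of subunits whose counterparts in other tissues are Cox6a1, Cox7a2 and Cox8a. Cox6a2 had 21.5, 29.3, 23.3 and 14.3 CPM in the controls, 24.6, 36.7, 56.9 and 13.6 CPM at 2 weeks, and 16.2, 17.7, 24.5 and 14.0 CPM at 5 weeks. Cox7a1 had 6.62, 10.8, 5.97 and 3.28 CPM in the controls, 5.92, 11.4, 18.8 and 3.09 CPM at 2 weeks, and 4.11, 6.68, 10.1 and 2.96 CPM at 5 weeks. Cox8b had 3.67, 6.51, 4.49 and 1.55 CPM in the controls, 3.74, 4.57, 12.9 and 2.22 CPM at 2 weeks, and 2.04, 1.94, 4.90 and 1.93 CPM at 5 weeks. All 3 were highest in 2-week replicate 3, the library with 11244 CPM of skeletal muscle markers. The highest control was replicate 2, the library with the next highest skeletal muscle sum. That control also had the highest sums of adipocyte markers, at 1629 CPM, and of 5 brown adipocyte markers, at 8.57 CPM. The brown adipocyte sum was 1.76 to 4.53 CPM elsewhere, with up to 3 of the 5 markers at 0. It was 4.53 CPM in 5-week replicate 3, the highest 5-week library for all 3 isoforms. The part of adipocyte markers in these levels was not tested.

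Skeletal muscle markers did not track all of this variation. In 2-week replicate 2, where the skeletal muscle markers summed to 63.1 CPM and the cardiomyocyte markers to 2225 CPM, Cox6a2 and Cox7a1 were the second highest of the 12 libraries. Their part in these levels was not tested. The SD of log2(CPM + 1) within groups was 0.574 for Cox6a2, 0.768 for Cox7a1 and 0.702 for Cox8b, the 3 largest of the 106. The difference of Cox6a2 at 2 weeks, 0.42 ± 0.34, was the largest of any member in that comparison and lay within its replicate error. It was 0.11 without 2-week replicate 3. The counterparts in other tissues were higher and steadier, with means over the 12 libraries of 187 CPM for Cox6a1, 41.8 CPM for Cox7a2 and 116 CPM for Cox8a, and within-group SD of 0.178, 0.252 and 0.175. The 250 bases before the start of Cox8b held 1 CAGCTG match, 19 bases before the start, and those of Cox7a1, Cox7a2 and Cox8a held no match to any of the 5 motifs. Promoters of Cox6a2, Cox4i1, Cox4i2 and Ndufa4l2 were not analysed here.

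**Figure D4:**
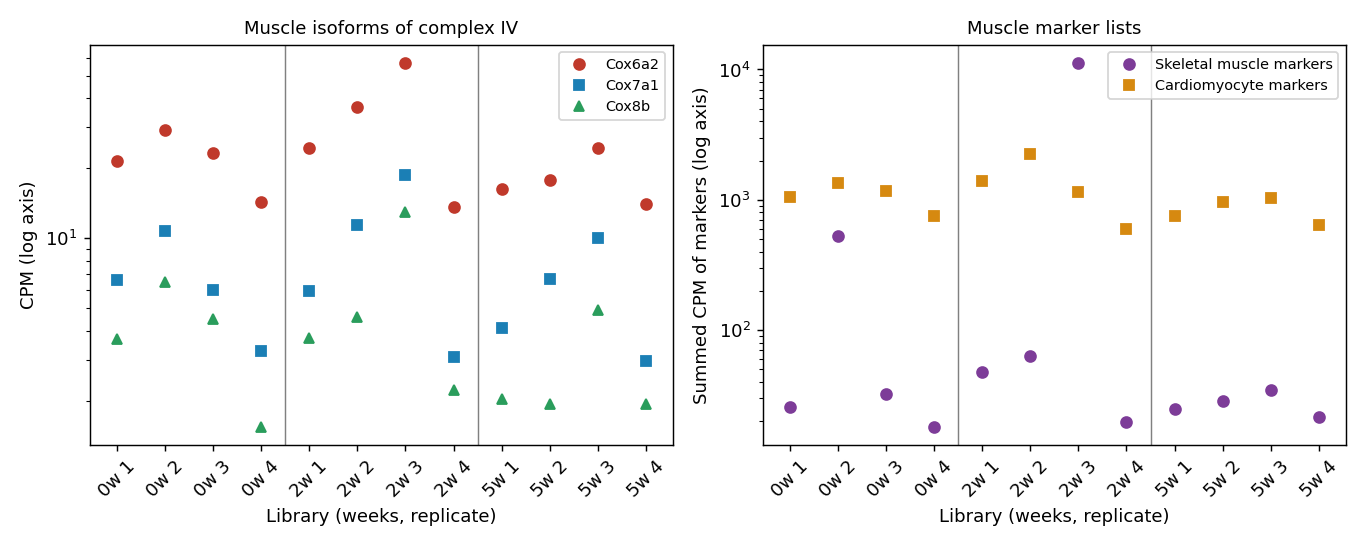
Left, CPM of the muscle isoforms Cox6a2, Cox7a1 and Cox8b in each library (log axis); right, summed CPM of the 10 skeletal muscle and 12 cardiomyocyte markers (log axis), with grey lines between groups. All 3 isoforms peak in 2-week replicate 3, where the skeletal muscle sum is 11244 CPM, and the cardiomyocyte sum peaks at 2225 CPM in 2-week replicate 2.

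The isoform pairs tuned to low oxygen behaved otherwise. Cox4i2, the form of subunit 4 that is characteristic of lung, had 57.2, 53.5, 80.5 and 57.1 CPM in the controls, 63.4, 69.8, 65.8 and 62.1 CPM at 2 weeks, and 72.6, 58.3, 80.5 and 60.5 CPM at 5 weeks. Per length, and over the 12 libraries, it stood at 89.2 CPM per kb against 331 for the general form Cox4i1. Ndufa4l2, a relative of the complex IV subunit Ndufa4 that is induced by hypoxia, had 33.2, 34.5, 45.1 and 33.4 CPM in the controls, 36.3, 39.8, 34.8 and 39.1 CPM at 2 weeks, and 40.6, 35.7, 43.3 and 31.8 CPM at 5 weeks. Control replicate 3 was the highest control for both genes, and 5-week replicate 3 the highest 5-week library. Cox4i2 differed by 0.13 ± 0.13 at 5 weeks against 0 weeks, within replicate error.

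Other nuclear complex IV members differed little. Ndufa4 differed by 0.23 ± 0.18 and Cox5a by 0.18 ± 0.16 at 2 weeks (0.14 and 0.03 without control replicate 4). The difference of Cox7a2l was 0.21 ± 0.13 at 5 weeks. Cox7a2l had 160, 148, 247 and 151 CPM at 5 weeks and 134 to 163 CPM in the controls, so that its higher mean rested on 5-week replicate 3 (0.04 without it). Cox6b2, a form of subunit 6B known from testis, had a mean of only 9.93 CPM against 77.6 CPM for Cox6b1 and differed by 0.17 ± 0.13 at 5 weeks. Cox7b, for a small subunit with no second form among the members, had a mean of 50.8 CPM.

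In complex V, Atp5g1, one of 3 genes that encode the same mature subunit c, was the nuclear member with an unadjusted p under 0.05 at 5 weeks against 2 weeks. It had 15.6, 17.2, 18.8 and 11.5 CPM in the controls, 18.4, 19.9, 24.3 and 14.1 CPM at 2 weeks, and 14.9, 12.8, 15.7 and 11.6 CPM at 5 weeks, a difference of -0.44 ± 0.17 (limma adjusted p = 0.368). Only 2-week replicate 4 fell among the 5-week values. Its differences from the controls were 0.26 ± 0.17 at 2 weeks and -0.17 ± 0.17 at 5 weeks, so its group means were ordered like those of most mitochondrial genes. Atp5g3, another subunit c gene, differed by 0.20 ± 0.16 and the alpha subunit Atp5a1 by 0.12 ± 0.10 at 2 weeks, or by 0.05 each without control replicate 4. At 5 weeks Atp5e, the epsilon subunit, differed by 0.27 ± 0.19 and Atp5h by 0.15 ± 0.15, which became 0.05 and -0.02 without 5-week replicate 3. Atp5b, the most abundant nuclear member by CPM, had 540, 678, 507 and 507 CPM in the controls, 528, 570, 625 and 508 CPM at 2 weeks, and 520, 545, 591 and 502 CPM at 5 weeks, with its highest value in control replicate 2. Subunit c genes resemble one another and have processed copies, so their counts are uncertain.

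The nuclear members deviated together between libraries of the same group. Control replicate 4 was the lowest control for 87 of the 93, where 29.9% of all genes tested had their lowest control. 5-week replicate 3 was the highest 5-week library for 92 of the 93, where 36.0% of all genes had their highest. At 2 weeks replicate 3 was highest for 74, where 19.9% of all genes had their highest, and replicate 4 was lowest for 67, where 27.8% had their lowest. The mitochondrial genes followed these 2-week libraries, with replicate 3 highest for 12 of 13 and replicate 4 lowest for all 13. Control replicate 4 was also lowest for 12 of 13 of them, but in 5-week replicate 3 they divided, with 5 at their highest of the 4 libraries (mt-Nd1, mt-Nd3, mt-Co2, mt-Co3 and mt-Atp6) and 6 at their lowest (mt-Nd2, mt-Nd4, mt-Nd4l, mt-Nd5, mt-Cytb and mt-Atp8). mt-Nd4l had 44.0 CPM there against 66.9 to 84.1 CPM in the other 5-week libraries, and mt-Nd5 had 1224 CPM against 1646 to 1812 CPM.

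In some libraries the deviation of the nuclear members went with the length of the mRNA, shown here for control replicate 4 and 5-week replicate 3. Nuclear members are short, with a median of 781.5 bases against 2739 bases for the other protein-coding genes tested. In 5-week replicate 3, members under 600 bases deviated from the mean of the other 3 libraries of the group by a median of 0.66 on the log2 scale, those of 600 to under 1000 bases by 0.58 and those of 1000 bases and over by 0.42. The other protein-coding genes deviated by 0.49, 0.35 and -0.06 in the same length classes. In control replicate 4 the members deviated by -0.60, -0.46 and -0.30 and the other genes by -0.36, -0.22 and 0.01. Short genes outside the respiratory chain thus deviated in the same direction as the members, by less in each class. Spearman's rho of length and deviation over the members was -0.51 in 5-week replicate 3 and 0.55 in control replicate 4 (n = 92 genes of the same library, which are not independent replicates), and over the other protein-coding genes -0.60 and 0.45 (n = 13866). A rho of similar size was found over the members in 5-week replicate 2 (0.51, against 0.46 over the other genes) and in control replicates 1 (-0.46 against -0.29) and 3 (-0.44 against -0.32). In the other 7 libraries it lay between -0.17 and 0.31 over the members. Among these were 2-week replicates 3 (0.17) and 4 (-0.13), where the nuclear members also deviated together. Over the 13 mitochondrial genes it lay between -0.67 in 2-week replicate 1 and 0.76 in 2-week replicate 3. Deviations of the 4 libraries of a group are measured against one another and so are not independent. The part of length in the group differences was not tested.

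**Figure D5:**
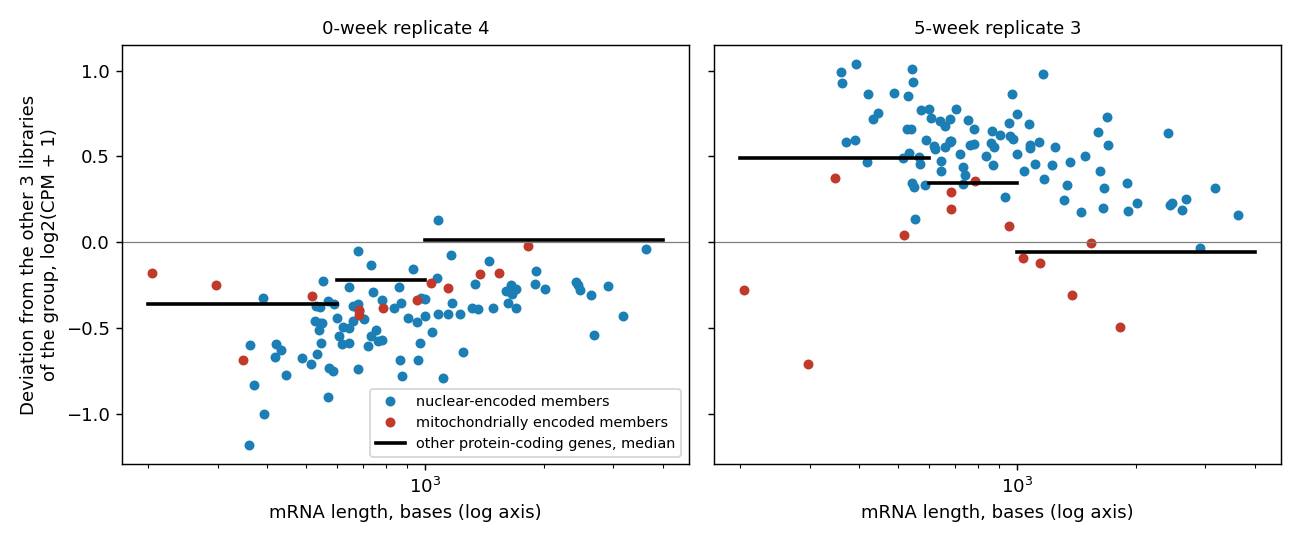
Deviation of each member in control replicate 4 (left) and 5-week replicate 3 (right) from the mean of the other 3 libraries of its group, in log2(CPM + 1), against mRNA length in bases (log axis); blue points are nuclear-encoded, red points mitochondrially encoded, and black bars are medians of the other protein-coding genes in 3 length classes. Most nuclear members lie below 0 on the left and above 0 on the right. By median they lie farthest among the short mRNAs, where the other genes also deviate by -0.36 and 0.49.

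Lists of related genes gave the surroundings of these results, and 0 of their genes passed the adjusted threshold. Of 40 further assembly and electron carrier genes, 35 were higher in the mean at 2 weeks and 35 at 5 weeks against 0 weeks, with medians of 0.12 and 0.08. Sdhaf4, an assembly factor of complex II, differed by 0.48 ± 0.19 and 0.41 ± 0.19 (adjusted p = 0.463 and 0.575, limma), and Higd1a, a hypoxia-induced protein that binds complex IV, by 0.20 ± 0.09 and 0.03 ± 0.09. Of 28 genes of mitochondrial transcription and RNA handling, 21 and 19 were higher, with medians of 0.07 and 0.04. Mterf1a, a mitochondrial transcription termination factor, differed by 0.31 ± 0.15 at 2 weeks, and Trmt10c, a subunit of the enzyme that cuts tRNAs from the mitochondrial transcripts, by 0.21 ± 0.10 at 5 weeks.

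Of 19 regulators of mitochondrial biogenesis, 8 were higher at 2 weeks and 5 at 5 weeks, with medians of -0.04 and -0.07. Esrra, a nuclear receptor that drives respiratory chain genes, differed by 0.27 ± 0.12 and the stress regulator Nfe2l2 by -0.18 ± 0.08 at 2 weeks. Of 24 genes of the citric acid cycle and pyruvate dehydrogenase, 19 were higher at 2 weeks and 8 at 5 weeks, with medians of 0.06 and -0.04. Pdk2, a kinase that switches pyruvate dehydrogenase off, had 55.0 ± 7.65, 75.1 ± 15.6 and 53.9 ± 2.82 CPM at 0, 2 and 5 weeks (SD, n = 4 each). It differed by 0.43 ± 0.13 at 2 weeks against 0 weeks (adjusted p = 0.367) and by -0.45 ± 0.13 at 5 weeks against 2 weeks (adjusted p = 0.288, limma). Sucla2, a subunit of succinyl-CoA synthetase, differed by 0.24 ± 0.11 at 2 weeks.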

How the data were processed

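Whole lungs were sequenced as bulk RNA. The authors deposited 1 table of CPM values with 0.0001 added to each cell. TopHat2, Partek and mm10 appear in the submitters' processing notes. The sources used here give no versions, strandedness or counting rules. Whole reads could not be recovered (87.2% to 87.9% of low values lay within 0.1 of a whole step), so no count model was fitted and no counting intervals are given. The p-values rest on the spread between libraries, 1 per mouse, so differences between mice and between library preparations cannot be told apart.

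Log2(CPM + 1) was fitted for 15562 genes whose mean reached 1 CPM, with limma 3.58.1 in R 4.3.3 (variance trend, 3 groups, 12 libraries) and adjusted over all genes. Single members also had an exact two-sided permutation test (318 tests, unadjusted). Members and lists were chosen with earlier results of these data known. Replicate numbers follow the order of deposition and pair nothing. Named were all mitochondrial members, the 3 nuclear members of each complex with the smallest p in each comparison with 0 weeks, the most abundant of each complex (1 is not reported here), the tissue isoforms, the most variable members and 2 genes per list. Ndufs1, which this rule names, had an adjusted p of 0.567 at 2 weeks, and Ndufaf3 had the highest mean of the assembly factors at 20.7 CPM. Predicted genes are not named. mRNA length was the median over principal transcripts in GENCODE M21, found for 105 members. Only 3 of 93 nuclear starts equal those of GRCm38, so nuclear positions are the deposited table's, in a build it does not name. Alternatives varied the pseudocount, filter, scaling, library weights, variance moderation and libraries used. The series also describes single-cell data, which were not analysed here.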

Additional observations from a re-analysis of the deposited data

Results flagged for a closer look

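In each group of 4 libraries, the gap between the highest or lowest library and its neighbour was divided by the range of the group and set against Dixon's 95% limit, which chance passes in about 1 in 20 groups. Among nuclear members the limit was passed by 18 of 93 in the controls, 8 of 93 at 2 weeks and 35 of 93 at 5 weeks, and among mitochondrial members by 1, 0 and 1 of 13. The share of all genes past the limit was not computed. Members deviated together in single libraries, so these counts are not of independent genes and cannot be read as an excess. Of the members past the limit, only those whose values or differences are named above are listed below.

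At 5 weeks the nuclear sum passed with a value of 0.8522, with replicate 3 the high library, and the mitochondrial sum with 0.9383, with replicate 4 the high library at 27787 CPM, within a narrow range. With replicate 3 as the high 5-week library, Cox5a (0.917), Sdhb (0.8426), Atp5e (0.8337), Cox7a2l (0.8818), Cox8b (0.9655), Ndufa4 (0.8623), Cox4i1 (0.9649), Cox7a2 (0.8369), Cox8a (0.8573), Sdhc (0.9397), Uqcrh (0.9325) and Ndufaf2 (0.8373) passed. mt-Nd4 (0.9261) passed with replicate 3 as the low library.

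In the controls, Sdhd (0.856), Ndufa4 (0.843), Cox8a (0.8517) and mt-Nd4l (0.9163) passed with replicate 4 low, and Cox4i2 (0.8607) and Ndufa4l2 (0.8887) with replicate 3 high. At 2 weeks, Sdhd (0.8674), Cox4i1 (0.8572) and Ndufaf8 (0.8343) passed with replicate 4 low.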

How the results depend on the processing

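No paired analysis was possible because the labels carry mouse numbers only and no number is shared between groups. The count of members past the adjusted threshold was 0 in every alternative for both comparisons with 0 weeks. At 5 weeks against 2 weeks it was 8 with library weights, where 881 genes passed in the whole table. It lay between 0 and 4 when 1 library was left out. The 4 came without 2-week replicate 4, where 386 genes passed in the whole table. The mitochondrial median lay between 0.02 and 0.22 at 2 weeks against 0 weeks, between -0.29 and -0.17 at 5 weeks against 0 weeks, and between -0.47 and -0.21 at 5 weeks against 2 weeks over all alternatives. The nuclear median at 5 weeks against 2 weeks was 0.01 without 2-week replicate 3 and 0.02 without 5-week replicate 2 or replicate 4. The mitochondrial sums under median-of-ratios scaling were 31533, 33831 and 26804 at 0, 2 and 5 weeks.

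Of 76 differences of named members, 62 moved by over 1.5 times or turned when 1 library was left out, and 13 changed sign under some alternative, and the cause was not tested. With library weights at 5 weeks against 0 weeks, Atp5h was -0.006, Sdhb -0.0872, Sdhc -0.0579, Uqcrc2 -0.0167, Uqcrh -0.0607 and Uqcrq -0.0523. Without control replicate 2, 2-week replicate 3 and 5-week replicate 3, Atp5h was -0.0467, Cox4i2 -0.0141 and Uqcrh -0.0552 in that comparison, and at 2 weeks against 0 weeks mt-Atp6 was -0.0691, mt-Co3 -0.0211, mt-Cytb -0.0277, mt-Nd4 -0.0395 and mt-Nd5 -0.035. At 2 weeks mt-Atp6 was -0.0067 with median-of-ratios scaling and mt-Nd5 -0.0015 with quantile normalization. Leaving out 1 library gave, at 5 weeks against 0 weeks, -0.0229 to 0.2514 for Atp5h, -0.0569 to 0.1877 for Sdhb, -0.0646 to 0.0964 for Sdhc, -0.0118 to 0.1398 for Uqcrc2, -0.0632 to 0.2823 for Uqcrh and -0.0457 to 0.207 for Uqcrq. At 2 weeks it gave -0.0054 to 0.1449 for Sdhd, -0.0921 to 0.1357 for mt-Atp6, -0.053 to 0.1537 for mt-Co3, -0.0257 to 0.1999 for mt-Cytb, -0.0386 to 0.2171 for mt-Nd4 and -0.0816 to 0.2008 for mt-Nd5. With 4 mice a group, differences of this size lie within the replicate error.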
